A study of Mus musculus with 3 samples.

Results

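The 10 genes described here encode enzymes of prostaglandin and leukotriene synthesis and were chosen by their GENCODE M21 symbols: Pla2g4a, Ptgs1, Ptgs2, Ptges, Ptges2, Ptges3, Alox5, Alox5ap, Lta4h and Ltc4s. All 10 members were found among the 55536 annotated genes of the gene tables, and they had 50 annotated transcripts of 141862. The libraries hold total RNA, depleted of ribosomal RNA, of the cytosol of macrophages that had been grown from bone marrow of C57BL/6J mice. Macrophages are phagocytes, and these are primary cells. The cells of the single group had been given lipid A, the TLR4-binding anchor of bacterial lipopolysaccharide, at 100 ng/ml for 120 min, with 3 libraries numbered as biological replicates 1, 2 and 3. There are no untreated cells here, so no response to lipid A was measured. All libraries carry the same donor identifier, and separate animals are not stated, so the spread between libraries may be technical.

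Arachidonic acid is freed from membrane phospholipids by cytosolic phospholipase A2, the product of Pla2g4a. Cyclooxygenases turn it into prostaglandin H2, from which terminal synthases make prostaglandin E2 and the other prostanoids, signals of fever, pain and vessel tone. In the other branch, 5-lipoxygenase and its membrane partner, the 5-lipoxygenase activating protein encoded by Alox5ap, make leukotriene A4, which Lta4h turns into the neutrophil attractant leukotriene B4 and Ltc4s into leukotriene C4. Macrophages are known to make both kinds of lipid, and Ptgs2 is a well known target gene of inflammatory signals in them.

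Sequence sets how well each member can be counted, so the stretches on which the values below depend are shown first. Ptges3 has a copy in the genome, the processed pseudogene Ptges3-ps on chromosome 6 of mm10 (85843980 to 85844459). All 480 bases of Ptges3-ps matched bases 332 to 811 of the transcript Ptges3-201 with 0 mismatches, and the first 120 of them serve as an example of letters that both genes share:
Ptges3 and Ptges3-ps: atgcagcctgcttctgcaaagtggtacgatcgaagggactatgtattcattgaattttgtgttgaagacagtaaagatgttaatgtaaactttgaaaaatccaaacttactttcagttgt
A read inside this stretch cannot be assigned to either gene by its sequence. Of the 31-base words of Ptges3-201, 23.5% also occur in transcripts of other genes, and 450 of these 463 words are in Ptges3-ps. Another processed pseudogene, Gm11893 on chromosome 4, holds 191 words of Ptges3-201 and had 0 expected counts in every library. The other high shares belonged to members with an antisense gene on top of them: 17.4% of the words of Ltc4s-202 lie in Gm26542, and 10.7% of those of Alox5ap-201 lie in Gm19719. Words were matched in either orientation, and those shared with these antisense genes are reverse complements. Reads of such words could be confused only where the strand was not kept. The main transcripts of Ptgs2, Pla2g4a and Alox5 had 0 words in transcripts of any other gene, and those of Ptges, Lta4h, Ptges2 and Ptgs1 had 0.387%, 0.8%, 1.88% and 4.44%.

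In 3 members a short noncoding transcript with at least 10% of the gene's TPM lies inside the exons of the main protein-coding transcript but for a single stretch of 31 to 75 bases, and the letters of that stretch, on mm10 and read 5′ to 3′ along the gene, are these:
Ptges2-203, chr2:32397471-32397537, plus strand: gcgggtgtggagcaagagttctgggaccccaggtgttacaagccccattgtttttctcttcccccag
Ptges-201, chr2:30901714-30901788, minus strand: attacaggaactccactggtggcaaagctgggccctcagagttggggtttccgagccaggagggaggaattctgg
Alox5ap-204, chr5:149287415-149287445, plus strand: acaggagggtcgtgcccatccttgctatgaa
Another such transcript, Lta4h-207, has 1 base outside the main one and is not shown. The stretches are 67, 75 and 31 bases long and are shown because the division of reads between these transcripts and the main ones rests on them and on the coverage of shared exons.

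The gene for the activating protein headed the set, while the gene of the lipoxygenase it serves was near 0. Levels are given in TPM, a measure of transcript abundance that divides by effective length and can be compared between genes. Alox5ap, on chromosome 5 (149264767 to 149288153, plus strand), was at 85.10, 89.11 and 80.04 TPM in replicates 1, 2 and 3, a mean of 84.8 ± 4.55 TPM (SD, n = 3). It exceeded 98.0% of nuclear-encoded protein-coding genes in mean TPM. Alox5, on chromosome 6 (116410077 to 116461178, minus strand), was at 0.05, 0.05 and 0.03 TPM. These levels rest on 4, 19 and 9 expected counts, with exact Poisson 95% intervals of 1.09 to 10.24, 11.4 to 29.7 and 4.12 to 17.1 counts that cover counting error only. Alox5ap had 3221, 12675 and 5637 expected counts in the same libraries. No Alox5 transcript had a TPM above 0 in every library among the 8 annotated, and a second deposited quantification, a transcript table in the layout of kallisto, gave 6, 20 and 11 counts. Because Alox5 had under 10 counts in 2 of 3 libraries, no ratio to it is given. In bulk RNA, fewer cells of a type and less RNA per cell cannot be told apart.

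The 2 leukotriene synthases stood between these levels. Lta4h, which encodes leukotriene A4 hydrolase on chromosome 10 (93453411 to 93484875, plus strand), was at 9.61, 8.69 and 9.12 TPM, a mean of 9.14 ± 0.460 TPM (SD, n = 3). Ltc4s, which encodes leukotriene C4 synthase on chromosome 11 (50236461 to 50238616, minus strand), was at 2.32, 2.68 and 2.71 TPM, a mean of 2.57 ± 0.217 TPM (SD, n = 3), on 54, 264 and 126 counts. The groups of values did not overlap, and Lta4h was the higher gene in 3 of 3 libraries. The mean log2 ratio of TPM was 1.83 ± 0.19 (SD, n = 3), a 3.56-fold difference. The log2 ratio was 1.51 with a pseudocount of 1, and 3.76 in expected counts, which are not divided by length. Gm26542, the antisense gene over Ltc4s, had 7, 12 and 17 expected counts but 52.8, 92.9 and 86.7 counts in the second quantification. The strand setting is not given in the sources used here, so reads of Ltc4s and Gm26542 may be mixed. The other genes that overlap a member, Gm19719, Gm43621, Gm13400, n-R5s180 and n-R5s219, had at most 2 expected counts in any library. In the second quantification, however, Gm43621, on the strand opposite to Ptgs1, had 16.3, 25.5 and 44.3 counts, so reads of Ptgs1 may be mixed too.

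Of the 2 cyclooxygenase genes, Ptgs2 was the higher in 3 of 3 libraries. Ptgs2, which encodes COX-2 and lies on chromosome 1 (150100031 to 150108227, plus strand), was at 27.73, 13.14 and 23.67 TPM, a mean of 21.5 ± 7.53 TPM (SD, n = 3). Ptgs1, which encodes COX-1, the form many tissues make without a stimulus, lies on chromosome 2 (36230426 to 36252272, plus strand) and was at 4.87, 2.98 and 3.64 TPM, a mean of 3.83 ± 0.959 TPM (SD, n = 3). The lowest Ptgs2 value was above the highest Ptgs1 value. The ratio of Ptgs2 to Ptgs1 was 5.69, 4.41 and 6.50 in replicates 1 to 3, a mean log2 ratio of 2.45 ± 0.28 (SD, n = 3). With 3 libraries the smallest p of a two-sided exact sign test is 0.25, so no test is given for this or the other ratios. In the deposited expected counts, not divided by length, the log2 ratio was 3.18, since the transcript of Ptgs2 is the longer one.

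The windows around the annotated starts of the 2 cyclooxygenase genes are shown because the products catalyse the same reaction. Each runs from 250 bases before to 50 after the start, from RefSeq on GRCm38.p6, with capitals for the motifs searched:
Ptgs2, chr1:150099781-150100080, plus strand: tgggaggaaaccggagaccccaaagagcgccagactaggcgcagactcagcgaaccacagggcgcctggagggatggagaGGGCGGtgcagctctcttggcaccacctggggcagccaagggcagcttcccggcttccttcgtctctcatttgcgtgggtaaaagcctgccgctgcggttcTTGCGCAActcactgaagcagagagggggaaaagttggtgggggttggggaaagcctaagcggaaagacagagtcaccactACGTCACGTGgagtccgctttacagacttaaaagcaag
Ptgs1, chr2:36230176-36230475, plus strand: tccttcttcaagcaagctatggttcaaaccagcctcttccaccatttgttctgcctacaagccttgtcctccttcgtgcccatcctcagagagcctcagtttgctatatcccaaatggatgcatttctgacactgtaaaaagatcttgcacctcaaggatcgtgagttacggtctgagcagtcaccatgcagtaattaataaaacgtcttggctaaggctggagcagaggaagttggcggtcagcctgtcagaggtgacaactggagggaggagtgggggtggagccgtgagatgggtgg
The motifs, searched on both strands and chosen after these windows had been read, were the TATA box as TATAAA, the E-box as CACGTG, the core of the cyclic AMP element as ACGTCA, a palindrome of the kind that C/EBP factors bind as TTGCGCAA, the GC box as GGGCGG, the CCAAT box, and the kappaB consensus. The Ptgs2 window held 4 of the 7. TTGCGCAA began 69 bases before the start and occurs in 0.183% of all 32851 windows. The cyclic AMP element and the E-box overlap by 2 letters and begin 12 and 16 bases after the annotated first base of the gene. They occur in 7.51% and 7.15% of windows, and GGGCGG, also in the Ptgs2 window, in 35.7%. The Ptgs1 window held none of the 7. A match is only a match of letters. Since the motifs were chosen after reading the windows, neither the contrast between the 2 genes nor the rarity of a motif carries weight. Any part of these letters in the levels was not tested. The promoter table held 9 of the 10 members, in 10 windows, and Alox5ap was not matched. TATAAA was in 1 member window, 1 of the 2 of Pla2g4a, against 13.6% of all windows, and the kappaB consensus in 1, that of Ptges3, against 8.46%. GGGCGG was in 4 member windows and CCAAT in 2, the latter against 37.4% of all windows. CACGTG was in 2 member windows, those of Ptgs2 and Ptges2.

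Of the 3 genes named for prostaglandin E synthase activity, 1 stood far above the others. Ptges3, which encodes the cytosolic form also known as p23, a cochaperone of HSP90, lies on chromosome 10 (128058954 to 128077272, plus strand). It was at 31.31, 25.50 and 28.50 TPM, a mean of 28.4 ± 2.91 TPM (SD, n = 3), in values that did not overlap those of the other 2 genes. Its copy Ptges3-ps was listed at 2.82, 4.62 and 4.23 TPM, on 39.2, 284 and 122 expected counts in the gene tables and 14.4, 529 and 143 in the second quantification, and the split between the copies is uncertain. Ptges3 itself had 3098, 10442 and 5731 expected counts.

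Ptges encodes the inducible microsomal synthase mPGES-1, which is known to couple to COX-2. It lies on chromosome 2 (30889471 to 30929863, minus strand) and was at 0.66, 1.16 and 1.77 TPM, a mean of 1.20 ± 0.556 TPM (SD, n = 3). Ptges2, for the membrane-associated form mPGES-2, lies on the same chromosome (32395896 to 32405772, plus strand) and was at 1.27, 1.13 and 1.55 TPM, a mean of 1.32 ± 0.214 TPM (SD, n = 3). The values of the 2 genes overlapped, and their order differed between libraries, with Ptges2 the higher in 1 of 3. The log2 ratio of Ptges to Ptges2 was -0.24 ± 0.62 (SD, n = 3). It turned to 0.07 in the second quantification, 0.12 without replicate 1, and 1.28 when only the main protein-coding transcripts were compared, an alternative added after seeing the data. Ptges3 was 21.7-fold above Ptges2 and 25.6-fold above Ptges, as mean log2 ratios of 4.44 ± 0.22 and 4.68 ± 0.80 (SD, n = 3 each). With a pseudocount of 1 these log2 ratios were 3.67 and 3.77, and on main protein-coding transcripts alone the ratio to Ptges2 was 6.47.

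Pla2g4a, the phospholipase gene at the head of the pathway, was a low member. It lies on chromosome 1 (149829618 to 149961290, minus strand), with 138740 bases between its start and that of Ptgs2 on the opposite strand. Its level was 1.81, 1.27 and 1.38 TPM, a mean of 1.49 ± 0.285 TPM (SD, n = 3), on 270, 770 and 418 counts. The log2 ratio of Pla2g4a to Ptgs2 was -3.80 ± 0.38 (SD, n = 3), and it was -3.12 with a pseudocount of 1, -3.25 in the second quantification and -4.48 in expected counts. On either side of Ptgs2 lies a noncoding gene on the minus strand. Ptgs2os, with 67 bases between it and the start of Ptgs2, had 0, 2 and 0 expected counts and 7, 20 and 14 in the second quantification. Ptgs2os2, downstream of Ptgs2, was at 0.67, 0.54 and 0.77 TPM.

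**Figure D1:**
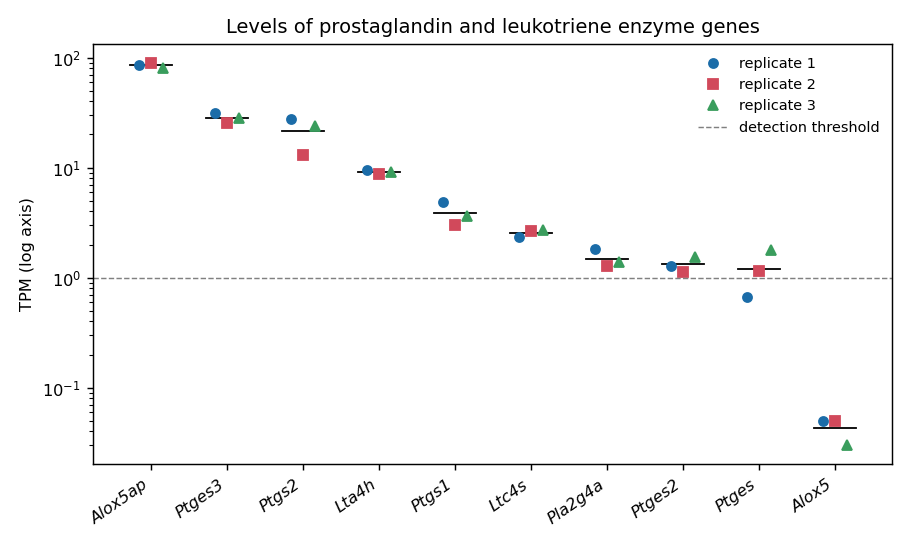
TPM of the 10 members in each library on a log axis, with symbols for replicates 1 to 3, a bar at the mean and a dashed line at the detection threshold of 1 TPM. Alox5ap lies between 80.04 and 89.11 TPM in the libraries and Alox5 between 0.03 and 0.05 TPM, with replicate 2 the lowest for Ptgs2 and replicate 1 the lowest for Ptges.

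In the order of mean TPM, from Alox5ap through Ptges3, Ptgs2, Lta4h, Ptgs1, Ltc4s, Pla2g4a, Ptges2 and Ptges to Alox5, most neighbours were separate. The ranges overlapped for Ptges3 and Ptgs2, although Ptges3 was the higher in 3 of 3 libraries. The 9 members other than Alox5 exceeded 62.5% to 98.0% of nuclear-encoded protein-coding genes in mean TPM, and Alox5 exceeded 46.0%. Ranges also overlapped for Pla2g4a and Ptges2, and for Ptges2 and Ptges. In the second quantification Ltc4s was above Pla2g4a in only 2 of 3 libraries. The mean of Ptges there, 0.654 TPM, was above that of Ptges2, 0.625 TPM. At a TPM of at least 1 in every library, 8 of the 10 members were detected, against 15.7% of all annotated genes and 37.6% of nuclear-encoded protein-coding genes. Ptges missed the threshold through replicate 1 alone, and without that library 9 members passed. The second quantification, on its deposited scale, gave 5, without Ltc4s, Pla2g4a and Ptges2, against 11.6% of all annotated genes. In it nuclear-encoded protein-coding genes held 6.51% to 10.32% of TPM, against 21.1% to 23.5% in the gene tables. With both rescaled so that those genes alone made up the TPM sum, Ptgs2 was at 95.9 ± 29.6 and 93.4 ± 29.1 TPM and Lta4h at 41.2 ± 0.242 and 40.4 ± 0.489 TPM (SD, n = 3 each). Both rescaled tables gave 9 detected members, Ptges included. Rescaling raised the TPM of every member, as from 0.66 to 2.81 for Ptges in replicate 1 of the gene tables. The same threshold of 1 was thus easier to pass, and the share of all genes passing it there was not calculated.

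The replicates were close for some members and far apart for others. Each gene's TMM-scaled expected counts were set against Poisson counting error by a chi-square dispersion test (2 degrees of freedom), with Benjamini-Hochberg adjustment over 14037 genes. At an adjusted p of 0.05, 7 of the 10 members varied, against 62.1% of all genes tested, so the members' share was near the background. The test calls small differences where counts are many, so the size of each spread is given with it. The libraries held 31152786, 114031592 and 59693298 expected counts in replicates 1, 2 and 3.

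Ptgs2 had the lowest adjusted p of the members. Its level in replicate 2 was less than in either other library, with a ratio of 2.11 between the highest and the lowest value (chi-square 2175, adjusted p = 1e-300 or lower, the smallest value written). Over the alternatives its adjusted p reached at most 3.51e-07, which was the value without replicate 2. Against the mean of the other libraries, replicate 2 was at -0.97 on the log2 scale for Ptgs2, where the median of 8699 detected genes was -0.16. Of the detected genes, 1.74% had a lower value. On the TMM scale, where the median of all detected genes was 0.04, Ptgs2 was at -0.78. Ptgs1 was also lowest in replicate 2, at -0.51 on the TPM scale and -0.31 on the TMM scale (adjusted p = 2.3e-10, at most 0.00906 over the alternatives). Replicate 2 also had the lowest share of mitochondrially encoded RNA, at 0.376% of TPM against 1.80% and 1.41%, and the lowest Malat1, a nuclear RNA, at 178 TPM against 741 and 812. Their part in the result was not tested.

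Ptges spread in another pattern, with replicate 1 the lowest. The ratio of its highest to its lowest TPM was 2.68. Its adjusted p was 2.7e-15, on 111, 625 and 469 counts, and stayed at 7.73e-06 or lower over the alternatives. The effective length of Ptges was 2971.5 bases in replicate 1 but 2346.69 and 2340.67 in replicates 2 and 3, which enlarges the TPM ratio. Ptges-202 alone was at 0.56, 0.73 and 1.12 TPM. In the second quantification Ptges was at 0.522, 0.672 and 0.766 TPM, or 5.06, 7.335 and 11.8 when rescaled over nuclear-encoded protein-coding genes. Replicate 1 was the library in which Ptgs2 was highest, so the cyclooxygenase and the synthase differed in which library was low. The biological coefficient of variation is the relative spread beyond counting error. The edgeR estimate used here is made per gene but drawn toward that of genes with similar counts. It was 0.284 for Ptges and 0.206 for Ptgs2, against a median of 0.151 and a single fitted value of 0.216 over all genes tested. It was above that of Ptgs2 in 2 members that were not called, at 0.258 for Ltc4s and 0.395 for Alox5. At 4 to 19 counts and a chi-square of 0.361, the Alox5 value says little of that gene's own spread. The estimate was 0.205 for Ptges2, 0.148 for Pla2g4a, 0.139 for Ptgs1, 0.108 for Alox5ap, 0.104 for Lta4h and 0.0895 for Ptges3.

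Alox5ap and Lta4h were called with small spreads. For Alox5ap the highest value was 1.11 times the lowest (adjusted p = 1.04e-33, at most 0.00684 over the alternatives). For Lta4h it was also 1.11 times, with an adjusted p of 0.00382 that rose to 0.678 without replicate 2 and to 0.179 with library totals in place of TMM factors, which ended the call. Over the alternatives it ranged from 3.67e-09 to 0.678. Pla2g4a (adjusted p = 0.0255) and Ptges2 (adjusted p = 0.035) lost their calls without replicate 1, at 0.957 and 0.609, and also in the second quantification, at 0.094 and 0.0507. Pla2g4a was not called without the filter on low counts (0.1), nor Ptges2 with library totals (0.069). Their lowest values over the alternatives were 0.00265 and 0.019. Ptges3, Ltc4s and Alox5 did not pass, with adjusted p of 0.322, 0.0895 and 0.861. Ptges3 passed with library totals at 5.56e-05 and among nuclear-encoded protein-coding genes at 0.0385. Ltc4s passed without replicate 3 at 0.042 and in the second quantification at 0.00461. Their ranges over the alternatives were 5.56e-05 to 0.955, 0.00461 to 0.373 and, for Alox5, 0.667 to 0.989.

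**Figure D2:**
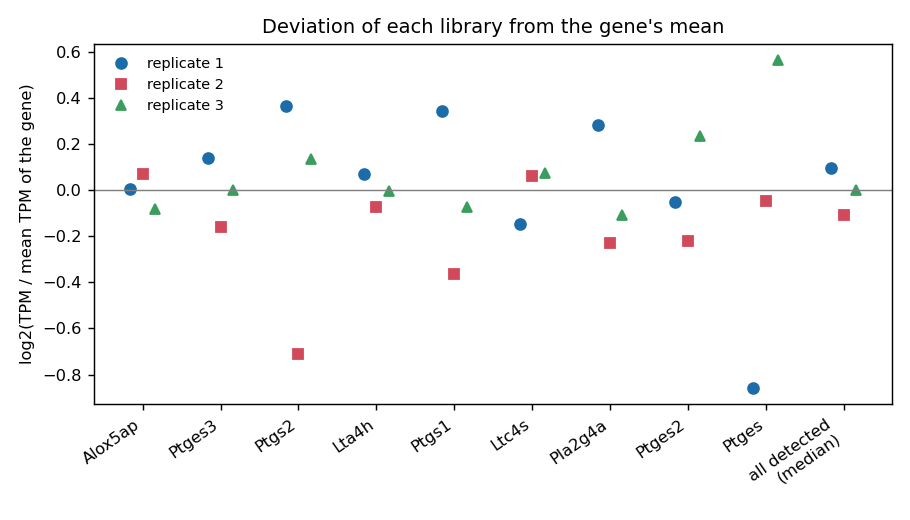
The log2 of TPM over the gene's own mean is plotted for each replicate of the 9 members other than Alox5, and the last column is the median over 8699 detected genes. Ptgs2 in replicate 2 is at -0.71 and Ptges in replicate 1 at -0.86, while Alox5ap lies between -0.08 and 0.07 and Lta4h between -0.07 and 0.07.

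Most members were quantified as 1 main protein-coding transcript. Ptgs2-201 held all of the Ptgs2 TPM in the gene-table pipeline and 97.8% ± 1.48 in the second quantification (SD, n = 3). Ptges3-201 held 99.4% ± 0.155, Pla2g4a-201 96.5% ± 2.88, Ptgs1-201 90.7% ± 3.13, Ltc4s-202 88.0% ± 5.65 and Lta4h-201 85.3% ± 2.60 of their genes' TPM (SD, n = 3 each). In the second quantification Pla2g4a-201 held 65.0% ± 11.2, where Pla2g4a-203, a transcript of 247 bases, took 28.9% ± 10.8 (SD, n = 3 each). The same transcript was at 0 TPM in every library of the gene-table pipeline.

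Ptges2 was the member whose highest transcript was not protein-coding. Ptges2-203, annotated as a retained intron, is 765 bases long, and apart from the 67 letters shown above it lies inside the exons of the 4978-base Ptges2-201. It held 75.4% ± 4.07 of TPM and 77.1% ± 3.18 in the second quantification, but 26.0% ± 3.82 of the expected counts (SD, n = 3 each). Its counts were 29.8, 101 and 72.9, against 73.3, 364 and 192 for Ptges2-201. Dividing by length thus reversed the order of the transcripts. The Ptges2 level of 1.32 TPM is mostly that of the short transcript, and Ptges2-201 alone was at 0.320 ± 0.0458 TPM (SD, n = 3).

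The same dependence on length was seen for Alox5ap and Ptges. Alox5ap-201 held 48.7% ± 4.80 of TPM and 78.3% ± 3.32 of counts, and Alox5ap-204, a 504-base processed transcript at the 3′ end of the gene, 39.1% ± 1.53 and 17.2% ± 1.21 (SD, n = 3 each). The protein-coding Alox5ap-202 held 12.2% ± 5.44 of TPM (SD, n = 3). On Alox5ap-201 alone the level was 41.3 ± 4.44 TPM (SD, n = 3), still the highest of the members' main transcripts. Ptges-202, the protein-coding transcript, held 70.5% ± 12.4 of TPM and 94.2% ± 2.97 of counts (SD, n = 3 each). In the second quantification it held 40.6% ± 1.69 of TPM, with 33.9% ± 14.7 in Ptges-201 and 22.0% ± 10.7 in Ptges-204 (SD, n = 3 each). For Lta4h the processed transcript Lta4h-207 held 13.2% ± 1.94 of TPM on 2.62% ± 0.379 of counts (SD, n = 3 each).

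**Figure D3:**
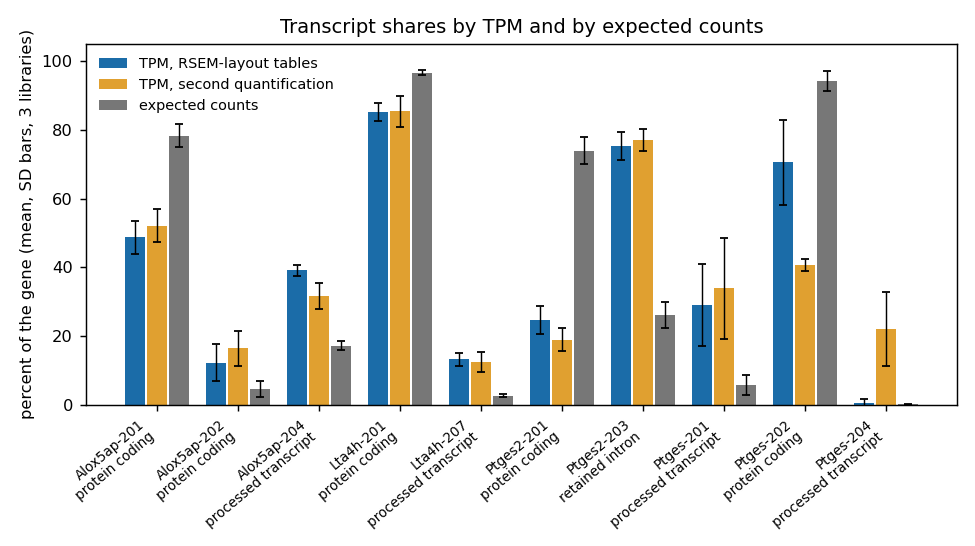
Bars give the mean percent of a gene held by each transcript with at least 10% in either quantification, for Alox5ap, Lta4h, Ptges2 and Ptges, by TPM in both quantifications and by expected counts, with SD bars over 3 libraries. Ptges2-203 holds 75.4% by TPM and 26.0% by counts.

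Of 85 other genes of the pathway in 8 role lists, 39 were detected, which is 45.9% against 37.6% of nuclear-encoded protein-coding genes. Among 20 other phospholipase A2 genes 4 were detected, led by the lysosomal enzyme gene Pla2g15 at 28.9 ± 1.33 TPM and by Pla2g7, for the hydrolase of platelet-activating factor, at 6.91 ± 3.01 TPM, with Pla2g12a at 1.55 ± 0.121 TPM (SD, n = 3 each). None of the other cytosolic group IV genes was detected, and Pla2g4b at 0.04 TPM was the highest of them. The list for arachidonate reacylation held 12 genes of acyl-CoA synthetases and lysophospholipid acyltransferases, taken without regard to the fatty acid each enzyme prefers. Of these 8 were detected, with Acsl5 at 13.5 ± 0.457, Acsl4 at 13.1 ± 1.22 and Lpcat1 at 10.8 ± 2.06 TPM (SD, n = 3 each).

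Of 7 other prostanoid synthase genes 5 were detected. Hpgds, the haematopoietic prostaglandin D synthase, was at 41.5 ± 3.03 TPM, the aldose reductase gene Akr1b3 at 22.8 ± 2.12, the thromboxane synthase gene Tbxas1 at 20.9 ± 1.55, the prostamide synthase gene Fam213b at 15.4 ± 1.59 and the carbonyl reductase gene Cbr1 at 4.84 ± 0.218 TPM (SD, n = 3 each). Ptgds and the prostacyclin synthase gene Ptgis were listed at 0 TPM in every library. The lowest Hpgds and Tbxas1 values, 38.75 and 19.26 TPM, were above the highest Ptges value of 1.77 TPM. No other lipoxygenase gene was detected. Alox12 was at 0.08, 0.05 and 0.07 TPM and Alox15 at 0, 0 and 0.13 TPM. In the same list the microsomal glutathione transferase genes Mgst1 and Mgst3, of the protein family of Ltc4s and Alox5ap, were detected at 53.4 ± 2.53 and 5.07 ± 0.301 TPM (SD, n = 3 each), and the third relative, Mgst2, was at 0.807 ± 0.159 TPM.

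Of the receptor genes, Ptger4 was the highest. Detected were 22.2% of the prostanoid receptor genes and 42.9% of the leukotriene and lipoxin ones, against 37.6% of nuclear-encoded protein-coding genes. The medians were 0.363 and 0.783 TPM, against 0.113 TPM over all nuclear-encoded protein-coding genes. Ptger4, for the EP4 receptor of prostaglandin E2, was at 25.45, 11.13 and 12.31 TPM, a mean of 16.3 ± 7.95 TPM (SD, n = 3), with replicate 1 the highest. Ptgir, for the prostacyclin receptor, was at 2.25 ± 0.516 TPM (SD, n = 3), and the 2 were the detected ones of 9 prostanoid receptor genes. Of 7 leukotriene and lipoxin receptor genes 3 were detected, namely the lipoxin and formyl peptide receptor gene Fpr2 at 2.45 ± 1.39, and the genes of the cysteinyl leukotriene receptors, Cysltr1 at 1.96 ± 0.695 and Cysltr2 at 1.34 ± 0.206 TPM (SD, n = 3 each). The leukotriene B4 receptor gene Ltb4r1 was at 0.0633 TPM. All 5 prostanoid receptor genes with enough counts, and 3 of 4 leukotriene and lipoxin receptor genes, varied beyond counting error, against 62.1% of all genes. Among transport and breakdown genes 6 of 12 were detected, with the leukotriene D4 dipeptidase gene Dpep2 at 17.1 ± 2.71, the leukotriene C4 exporter gene Abcc1 at 11.9 ± 2.16 and the prostaglandin reductase gene Ptgr2 at 6.98 ± 0.186 TPM (SD, n = 3 each). The prostaglandin dehydrogenase gene Hpgd was at 0.133 TPM. All 9 genes for kinases and binding proteins of these enzymes were detected, led by Anxa1, for the phospholipase-inhibiting annexin, at 179 ± 12.5, the kinase gene Mapkapk2 at 161 ± 14.3 and Cotl1, whose product binds 5-lipoxygenase, at 130.1 ± 10.8 TPM (SD, n = 3 each).

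**Figure D4:**
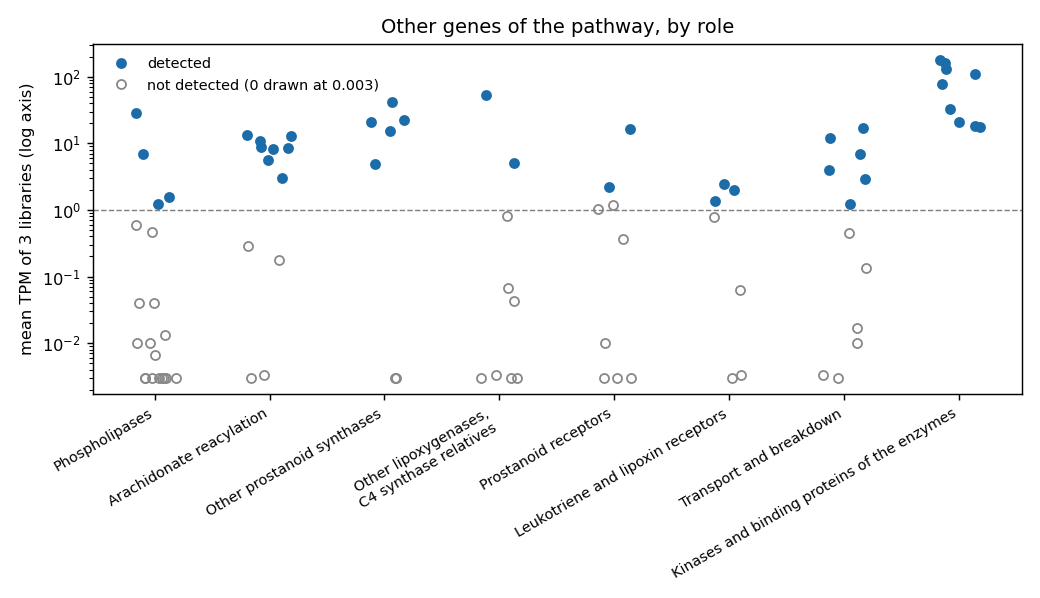
Mean TPM over 3 libraries, on a log axis, of 85 other pathway genes in 8 role lists, with filled circles for genes at 1 TPM or more in every library. All 9 genes for kinases and binding proteins are filled, against 4 of 20 phospholipase genes and 2 of 9 prostanoid receptor genes.

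The cell type label was checked against markers, since mast cells, neutrophils and platelets also carry these enzymes. All 10 macrophage markers were detected, led by Lyz2 at 4039 ± 316, Cd68 at 545 ± 20.4 and Cd14 at 524 ± 76.8 TPM (SD, n = 3 each), and their summed level was 5419 to 5936 TPM. None of 10 mast cell and basophil markers was detected, led by Hdc, Kit and Prss34, with a summed level of 1.56 to 2.40 TPM and 3 genes at 0. Of 10 neutrophil markers 4 were detected, S100a9, Csf3r, S100a8 and Mmp8, with a summed level of 34.1 to 44.4 TPM and 1 gene at 0. Of 8 platelet and megakaryocyte markers only Pf4, at 148 ± 15.0 TPM (SD, n = 3), was detected, followed by Ppbp at 0.590 and Itga2b at 0.127 TPM, and the list summed to 132 to 161 TPM. None of 8 stromal, 6 eosinophil, 6 dendritic or 8 B and T cell markers was detected. The highest of each were Pdgfrb, Col1a1 and Col1a2, then Siglecf, Prg2 and Ear6, then Ccr7, Xcr1 and Zbtb46, and Cd79b, Cd79a and Ms4a1. The summed levels of the stromal, eosinophil, dendritic and lymphocyte lists were at most 0.16, 0.17, 2.34 and 0.54 TPM.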

How the data were processed

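Per the file headers and the text listings deposited with each library, the authors quantified 3 libraries against mm10 and GENCODE M21 in an RSEM layout, from transcriptome alignments, and in a kallisto layout, from reads, called the second quantification here. Not given in the sources used here are the aligner, tool versions and strandedness. The authors deposited expected counts, which are estimates, with TPM and FPKM scaled by effective length, per the file headers. The authors also deposited each transcript's share of its gene in percent, which was recalculated from TPM. The bounds of the authors' credibility interval of TPM, a signal per the file headers, were not used for any result.

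Kallisto-layout TPM was summed per gene. Expected counts were rounded, scaled by TMM factors in edgeR 4.0.16 (R 4.3.3) and tested for dispersion where they averaged at least 10, and DESeq2 1.42.0 size factors were an alternative. The test was tested on simulated data. Other alternatives were library totals, no filter on low counts, nuclear-encoded protein-coding genes only, other TPM thresholds, FPKM, a pseudocount, the second quantification, main transcripts alone, and leaving out each library. Other steps used Python 3.11.15, pandas 2.3.3 and scipy 1.17.1. No 2 libraries held the same values, and a chi-square over genes found every pair different. Zero counts allow up to 3 counts, or 0.0263 to 0.0963 CPM, for counting error only. The members and lists were chosen with earlier results of these data known. All members are named, with the 3 highest genes of each list, every detected synthase, lipoxygenase and receptor gene, transcripts with at least 10% of a gene, and overlapping genes. Ptgs2os, Ptgs2os2 and some undetected genes were named after their values were seen. Dpep2 has 2 identifiers, of which the one with more counts was used.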

Additional observations from a re-analysis of the deposited data

How the results depend on the processing

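The count of detected members moved from 8 to 4 at a threshold of 5 TPM and to 5 in the second quantification, and stayed at 8 or 9 under the other alternatives. Of these settings, the share of all annotated genes was calculated only for the main one (15.7%) and the second quantification (11.6%). At least 5 and at most 8 members varied beyond counting error, against 7 in the main setting, where 62.1% of all genes tested did. The count was 5 without replicate 1 (45.3% of all genes). It was 8 without replicate 3 (49.5%) and among nuclear-encoded protein-coding genes (61.5%). Without replicate 2 it was 6 of the 9 members tested (37.9%), as Alox5 fell under the count filter. In the second quantification it was also 6 (74.9%). Detected pathway genes ran from 26 to 48 against 39, and the share of all genes at the settings giving 26 and 48 was not calculated. The log2 ratio of Ptgs2 to Ptgs1 moved from 2.45 to 3.18 with expected counts not divided by length, and that of Lta4h to Ltc4s from 1.83 to 1.51 with a pseudocount of 1 and to 3.76 with such counts. The ratio of Ptges to Ptges2 turned from -0.24 to 0.068 in the second quantification, 0.45 with expected counts and 1.28 for the main transcripts, and ranged from -0.45 to 0.12 when a library was left out. The cause was not tested. Of 55 values of single genes, pairs and transcripts recomputed under other settings, 12 stayed within 1 SD, 40 moved further and 3 changed sign. All 3 sign changes were those of the ratio of Ptges to Ptges2. Many of the moved values were mean levels set against TPM on another scale, with 9 of 10 moved in the second quantification. Between scales that differ in the share of nuclear-encoded protein-coding genes, such moves say nothing of stability. Leaving out 1 of 3 libraries cannot move a mean by 1 SD and says nothing of stability. Rescaling over nuclear-encoded protein-coding genes moved the levels of all 10 members. It multiplies every such level in a library by the same factor, so these moves were a change of unit. Depth limits Alox5, with 4 to 19 counts, and Ltc4s. No paired analysis was possible because there is only 1 group.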
